A study of Mus musculus with 7 samples.

Results

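The genes examined here encode enzymes that make reactive oxygen or nitric oxide. The 9 genes, chosen by name, were the NADPH oxidase genes Cybb, Cyba, Nox4, Ncf1 and Ncf4, the nitric oxide synthase genes Nos1 and Nos3, and the oxidase genes Xdh and Maoa. Counts of 8 of them were used, among 14641 genes in the table, and Nos1 was not analysed here. RNA was sequenced from hearts of male C57BL/6J mice, 1 library a mouse, in 3 mice carrying cardiac-specific full-length Nrf2 (mNrf2-TG, libraries 17 to 19) and 4 non-transgenic mice (NTG, libraries 1 to 4). The transgene was under the αMHC promoter, which is active in cardiomyocytes. The labels of the mNrf2-TG libraries say 6 months, and those of the NTG libraries give no age. The methods say 6 to 7 months and the description of the series says 7 to 8 months. The tissue was a whole heart lysate, so the RNA came from cardiomyocytes, vessels, connective tissue and resident or circulating immune cells together.

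NADPH oxidases move electrons from NADPH across a membrane to oxygen. The phagocyte enzyme is built on the catalytic subunit NOX2, encoded by Cybb, with its membrane partner from Cyba, and it is switched on when cytosolic subunits, among them those encoded by Ncf1 and Ncf4, and a Rac GTPase bind to it. NOX4, encoded by Nox4, needs the Cyba product but not the cytosolic subunits and releases mainly hydrogen peroxide. Nitric oxide synthases make nitric oxide from arginine with the cofactor tetrahydrobiopterin, and the endothelial form encoded by Nos3 relaxes vessels. Xanthine oxidoreductase (Xdh) and the mitochondrial monoamine oxidases (Maoa, Maob) give off reactive oxygen as they break down purines and amines. Nrf2 itself is a transcription factor known for inducing antioxidant genes.

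Library totals lay between 6534684 and 8405857 counts for NTG and between 6953122 and 8060644 for mNrf2-TG. Values below are normalized counts, which are counts scaled with the TMM factors of edgeR to a library of the mean size, 7526178. Nfe2l2, the gene of the transgene, ranged between 729 and 1392 raw counts in NTG and between 10912 and 12839 in mNrf2-TG, so each library matched its label. Its Log2FC was 3.36 (SE 0.18, adjusted p = 2.96e-06, edgeR's quasi-likelihood F test, Benjamini-Hochberg). Summed cardiomyocyte markers were the most abundant marker list, between 607195 and 704938 for NTG and between 506799 and 542016 for mNrf2-TG. Of these 10 markers 5 were lower and 0 higher at an adjusted p under 0.05, or 50%, while 8.73% of all genes were lower.

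In mNrf2-TG hearts Cybb was upregulated and Nos3 was downregulated, and the other 6 measured genes did not pass the test. Thus 2 of 8, or 25%, were called at an adjusted p under 0.05, against 17.2% of the 14637 genes tested, so the share lies near that of all genes. In the separate directions 1 gene was higher, where 8.48% of all genes were, and 1 was lower, where 8.73% were. The median Log2FC of the 8 genes was 0.27, against 0.0012 over all genes, and 6 of 8 were above 0. The study's cut-offs (p under 0.05 before adjustment, fold above 2), applied here to the edgeR fit, called Cybb alone of the 8. They called 5.65% of all genes in this fit, whereas the study applied them to DESeq2 p-values. Normalized counts of the groups did not overlap for 3 of the 8 genes (Cybb, Cyba and Nos3), as for 29.7% of all genes.

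**Figure D1:**
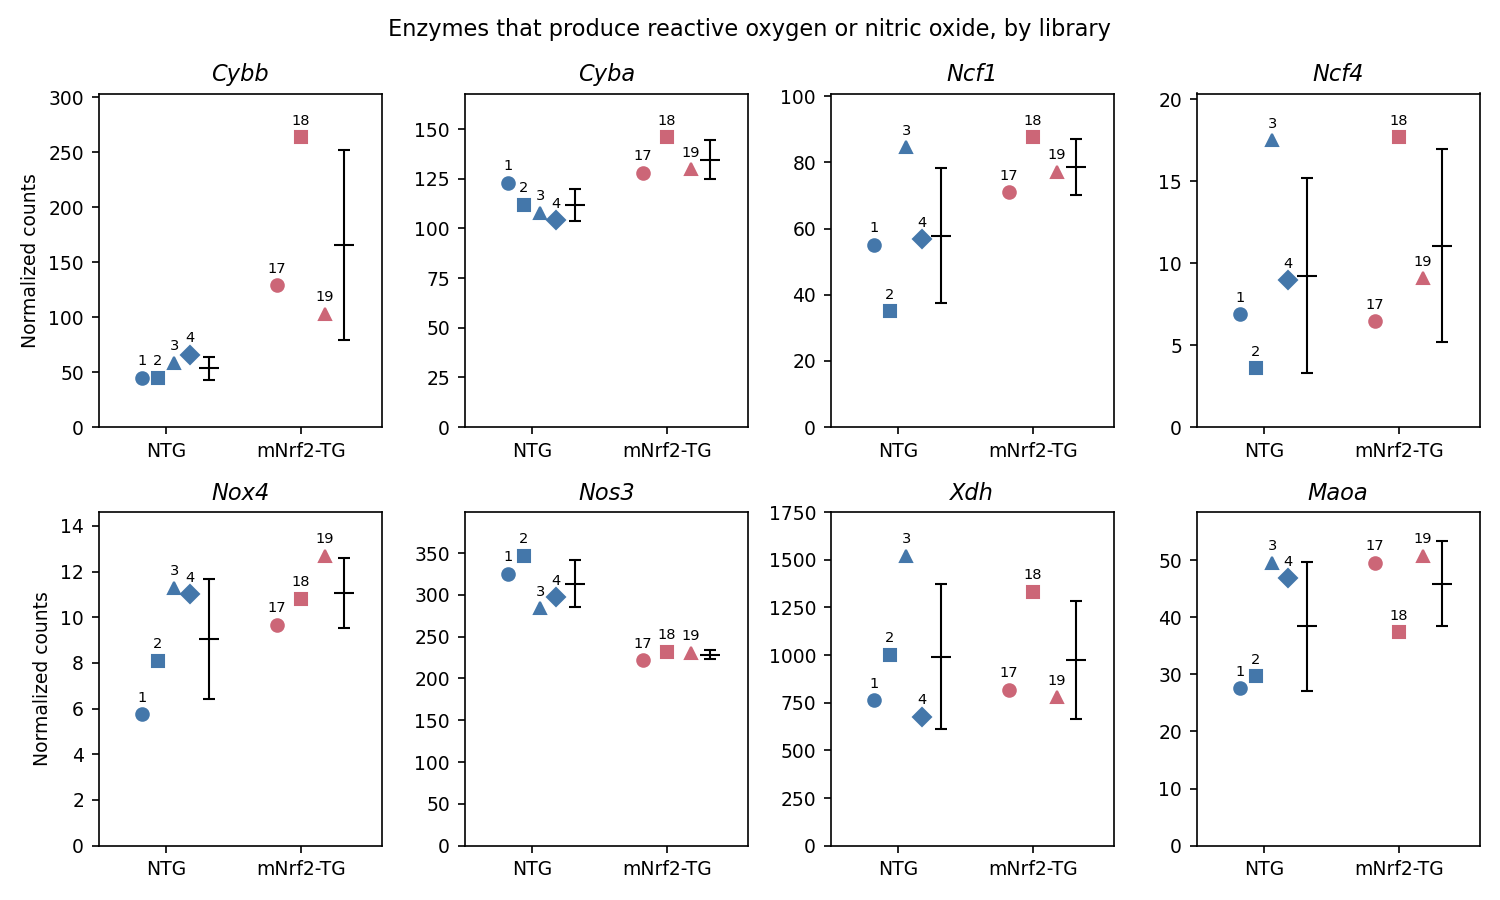
Normalized counts of the 8 genes (y axis, linear, from 0) in each library, in 4 NTG (blue) and 3 mNrf2-TG (red) hearts, with library numbers beside the points and the mean ± SD beside each group. Cybb (103 to 264 in mNrf2-TG) lies above and Nos3 (222 to 232 in mNrf2-TG) lies below every NTG library, while Xdh overlaps throughout.

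Cybb (gene ID 13058, 5.808 kb of exons, minus strand, chromosome X from 9435252 to 9487771 in GRCm38) rose in the transgenic hearts. The NTG libraries 1 to 4 had 44.8, 45, 58.8 and 65.7 normalized counts, and mNrf2-TG libraries 17, 18 and 19 had 129, 264 and 103. Every mNrf2-TG library lay above every NTG library, and library 18 stood well above the other two. The means were 53.6 ± 10.4 (SD, n = 4) and 166 ± 86.3 (SD, n = 3), a 3.08-fold difference with a 95% interval of 1.92 to 4.94. The Log2FC was 1.62 (SE 0.31, adjusted p = 0.00718, edgeR). Without library 18 the fold was 2.16 (Log2FC 1.11, adjusted p = 0.011, edgeR), and Cybb was called in 14 of 14 alternative fits. None of the 50-base stretches of its transcripts occurred in another gene.

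Promoters from RefSeq (GRCm38.p6), taken as 250 bases before to 50 bases after the transcription start, were found for 5 of the 8 genes (Cybb, Cyba, Nox4, Ncf1 and Maoa). The core of the antioxidant response element to which Nrf2 binds was searched as TGACNNNGC on both strands. It was in 0 of these 5 promoters and in 4071 of all 32851 promoters (12.4%). GAGGAA, a motif of the type bound by the myeloid factor PU.1, was searched in the same way and was in 1 of 5, that of Cybb, and in 9289 of all promoters (28.3%). The Cybb promoter is shown because Cybb was the upregulated gene of the 8, and that of Acox2, a partner gene described later, because it carries the core and had the largest Log2FC of the named partner genes. Both are on the minus strand, the Acox2 sequence is from 1 of its RefSeq starts, and they are written 5′ to 3′. Capitals mark TTCCTC, which reads GAGGAA on the other strand, in Cybb at chrX:9469275-9469574, and GCTGAGTCA, which reads as the core on the other strand, in Acox2 at chr14:8258970-8259269. A match in letters does not show binding. Promoters of the other partner genes were not examined individually, so whether the core goes with higher values was not tested.
Cybb: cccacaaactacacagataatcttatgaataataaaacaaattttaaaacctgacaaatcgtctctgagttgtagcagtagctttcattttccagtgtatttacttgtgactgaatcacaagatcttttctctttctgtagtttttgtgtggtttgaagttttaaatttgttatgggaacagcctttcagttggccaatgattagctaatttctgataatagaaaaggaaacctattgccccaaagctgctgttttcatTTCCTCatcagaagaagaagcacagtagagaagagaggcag
Acox2: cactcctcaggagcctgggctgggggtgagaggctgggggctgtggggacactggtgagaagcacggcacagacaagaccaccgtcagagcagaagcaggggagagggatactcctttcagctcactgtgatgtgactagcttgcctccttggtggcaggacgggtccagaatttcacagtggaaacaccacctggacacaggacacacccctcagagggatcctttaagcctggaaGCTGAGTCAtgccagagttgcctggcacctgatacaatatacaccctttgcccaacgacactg

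Cyba (13057, chromosome 8 from 122424776 to 122432930, minus strand) encodes the membrane partner shared by NOX2 and NOX4. Its NTG libraries had 123, 112, 108 and 104 normalized counts and its mNrf2-TG libraries 128, 146 and 129.8. The groups did not overlap, but the nearest libraries were 123 and 128. The Log2FC was 0.27 (SE 0.11, 95% interval 0.03 to 0.51, adjusted p = 0.116, edgeR), and Cyba was called in 0 of 14 alternative fits.

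Ncf1 (17969, chromosome 5 from 134220053 to 134229625, minus strand) encodes the organizer subunit that carries the cytosolic complex to the membrane. The NTG libraries had 55.2, 35.1, 84.6 and 56.8 normalized counts and the mNrf2-TG libraries 71, 87.7 and 77.2. NTG library 3 lay within the mNrf2-TG values, and the other NTG libraries lay below them. The Log2FC was 0.45 (SE 0.25, 95% interval of the fold 0.935 to 1.99, adjusted p = 0.239, edgeR). Without NTG library 3 it was 0.69 (1.62-fold, adjusted p = 0.0332, edgeR), which passes the test. Ncf1 shares 408 exon bases with Gtf2ird2 on the opposite strand (Log2FC 0.48, SE 0.18, adjusted p = 0.0924, edgeR), and whether the counting used strand is not given in the sources used here.

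Ncf4 (17972, chromosome 15 from 78244801 to 78262580, plus strand), which encodes a further cytosolic subunit, was near the limit of this depth, with raw counts from 4 to 17 (NTG) and from 6 to 18 (mNrf2-TG). Its normalized counts were 6.9, 3.6, 17.5 and 8.96 in NTG and 6.46, 17.7 and 9.08 in mNrf2-TG. The groups overlapped fully, with a Log2FC of 0.28 and a 95% interval of -0.91 to 1.46. At this depth neither an increase nor a decrease of Ncf4 was detected, and without library 18 the Log2FC was -0.22.

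The Rac partners of the phagocyte enzyme did not pass the test. Rac2, the Rac GTPase of blood cells, had 25.7 ± 7.78 normalized counts (SD, n = 4) in NTG and 34.7 ± 12.5 (SD, n = 3) in mNrf2-TG (Log2FC 0.44, SE 0.30, adjusted p = 0.358, edgeR). Rac1, the widely expressed Rac GTPase, had 1786 ± 63.9 and 1646 ± 99.3 (Log2FC -0.12, adjusted p = 0.271, edgeR). Among the NADPH oxidase partner genes, Noxo1, Duox1, Duox2 and Duoxa1 had at most 7, 15, 5 and 8 counts in any library. Duox1 (2.25-fold) alone of the list passed the study's cut-offs. With these low counts limiting the comparison, 0 of the 11 partner genes tested were called by edgeR, against 17.2% of all genes. Their median Log2FC was 0.06, and 2 had an unadjusted p under 0.05 (Hvcn1 and Duox1), while DESeq2 called 0 and limma-voom 0. All 5 of Cybb, Cyba, Ncf1, Ncf4 and Rac2 had their highest mNrf2-TG value in library 18.

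Most macrophage markers were higher in mNrf2-TG, as Cybb was. Of 12 macrophage markers, 8 were higher and 0 lower in mNrf2-TG, or 66.7% called, against 17.2% of all genes. Their median Log2FC was 0.83, and their summed normalized counts ranged from 2625 to 3233 (NTG) and from 4144 to 5636 (mNrf2-TG). The 4 not called had Log2FC of 0.59 (Fcgr1), 0.42 (Mrc1), 0.34 (Cd68) and -0.18 (Mertk), each with overlapping groups. Library 18 was the highest mNrf2-TG library for 10 of the 12. Among the NTG libraries, Cybb was highest in library 4 (65.7) and the marker sum in library 3 (3233). Adgre1, the F4/80 antigen of tissue macrophages, had 75.9, 71.1, 72.2 and 68.7 normalized counts in NTG and 136, 223 and 133 in mNrf2-TG (Log2FC 1.19, SE 0.18, adjusted p = 0.00313, edgeR). Csf1r, the receptor for macrophage growth factor, had a Log2FC of 1.06 (SE 0.12, adjusted p = 0.000598, edgeR). Of 8 general leukocyte and neutrophil markers, 1 was higher (Ptprc, Log2FC 0.96, adjusted p = 0.00768, edgeR), and the median Log2FC of the 8 was -0.31. This list had 12.5% called, against 17.2% of all genes. The neutrophil genes S100a8 (Log2FC -1.46, SE 0.61, adjusted p = 0.132, edgeR) and S100a9 (Log2FC -1.03, SE 0.46, adjusted p = 0.153, edgeR) had at most 17 and 27 counts in any library. In a whole tissue, more cells of a type and more RNA per cell cannot be told apart.

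Set against the summed macrophage markers of its own library, Cybb was 0.73 higher on the log2 scale in mNrf2-TG (-5.70 ± 0.26 (SD, n = 4) against -4.97 ± 0.49 (SD, n = 3)). The log2 ratio was -5.85, -5.86, -5.77 and -5.31 in NTG libraries 1 to 4 and -5.18, -4.41 and -5.32 in libraries 17 to 19. NTG library 4 and library 19 were level, so the groups overlapped. The exact permutation test over 35 assignments, two-sided, gave p = 0.0857 (adjusted p = 0.114 over 4 ratios). The difference was 0.45 without library 18 and 0.45 to 0.90 over all libraries left out in turn. The part of the macrophage markers in the rise of Cybb was not tested further.

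**Figure D2:**
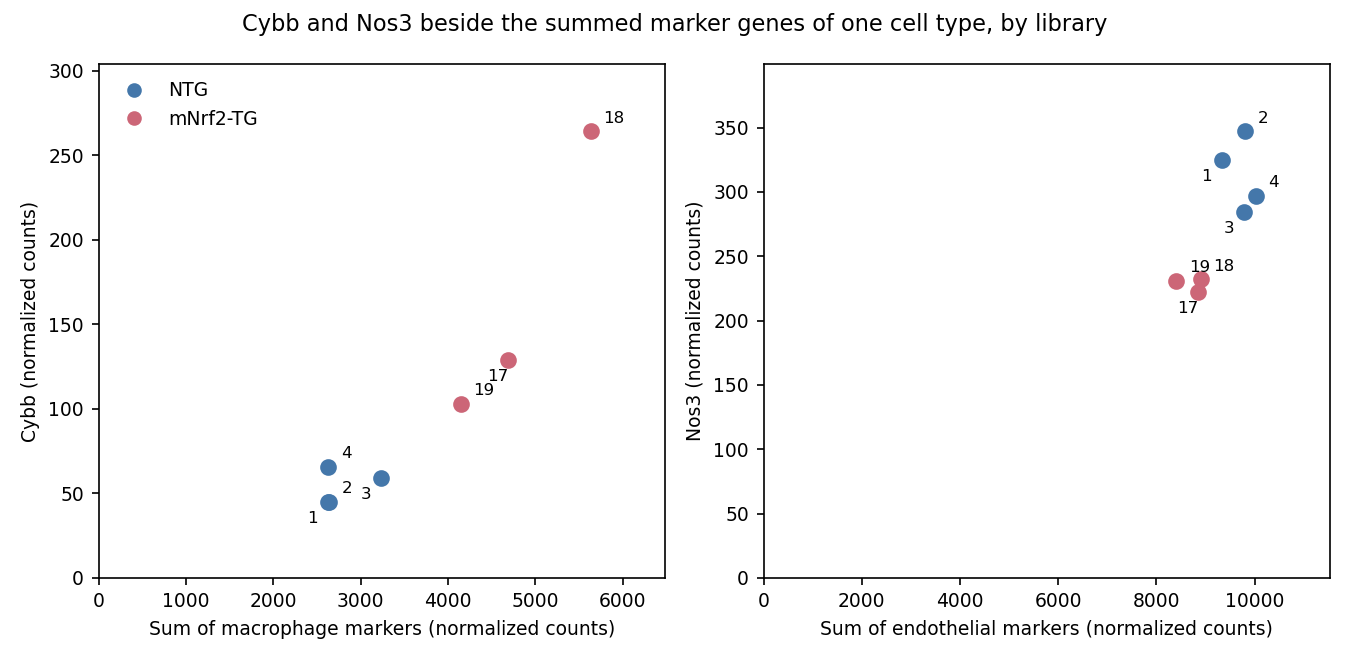
Normalized counts of Cybb against the sum of 12 macrophage markers (left) and of Nos3 against the sum of 11 endothelial markers (right), 1 point a library, with library numbers and linear axes from 0. The 3 mNrf2-TG libraries (red) lie above the 4 NTG libraries (blue) on both axes at left, with library 18 highest, and below them on both axes at right.

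Nox4 (50490, chromosome 7 from 87246096 to 87398710, plus strand), the hydrogen peroxide-producing NADPH oxidase of many non-immune cells, was the least expressed of the 8 genes. Raw counts were 5 to 11 (NTG) and 9 to 14 (mNrf2-TG). Normalized counts were 5.75, 8.1, 11.3 and 11 in NTG and 9.68, 10.8 and 12.7 in mNrf2-TG. The values overlapped, with a Log2FC of 0.29 (SE 0.34, 95% interval -0.46 to 1.04, adjusted p = 0.602, edgeR). No difference was detected at this depth, and the interval allows changes in either direction.

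The balance between the catalytic subunits was compared as the log2 ratio of Nox4 to Cybb counts in each library. It was -2.84, -2.41, -2.32 and -2.53 in NTG and -3.66, -4.55 and -2.98 in mNrf2-TG. Every mNrf2-TG library lay below every NTG library, by 1.20 on average. The exact permutation test gave p = 0.0286, the smallest that 35 assignments allow, and the adjusted p over 4 ratios was 0.114. The difference was -1.58 to -0.80 when 1 library at a time was left out, with -0.80 without library 18.

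Nos3 (18127, chromosome 5 from 24364810 to 24384474, plus strand), the endothelial nitric oxide synthase, fell in the transgenic hearts. The NTG libraries had 325, 347, 284 and 297 normalized counts and the mNrf2-TG libraries 222, 232 and 231. The 3 mNrf2-TG libraries were close together and all lay below the lowest NTG library. The means were 313 ± 28.7 (SD, n = 4) and 228 ± 5.45 (SD, n = 3), a 1.37-fold difference. The Log2FC was -0.46 (SE 0.0928, 95% interval -0.67 to -0.25, adjusted p = 0.00956, edgeR), and Nos3 was called in 14 of 14 alternative fits, with Log2FC of -0.50 to -0.40 when 1 library was left out. On the opposite strand Nos3 shares 294 exon bases with Atg9b and 1040 with Gm15587, and 20% of the 50-base stretches of its transcripts occur there. Atg9b had 3 to 15 counts in a library, with a Log2FC of 0.11 (SE 0.48, adjusted p = 0.905, edgeR), and Gm15587 was not analysed here.

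Of 11 endothelial markers, 3 were lower and 1 was higher in mNrf2-TG, or 36.4% called, against 17.2% of all genes. Their median Log2FC was -0.16, and their sums ranged from 9328 to 10026 (NTG) and from 8404 to 8900.5 (mNrf2-TG). Pecam1, a junction protein of endothelial cells, had a Log2FC of -0.47 (SE 0.068, adjusted p = 0.00214, edgeR), close in size to that of Nos3. Esam (Log2FC -0.47) and Cdh5 (Log2FC -0.37, called in 4 of the 7 fits that left out 1 library) were also lower. Kdr, a receptor for vascular endothelial growth factor, was higher (Log2FC 0.39, SE 0.12, adjusted p = 0.048, edgeR), with overlapping groups, and was called in 2 of the 7 fits that left out 1 library. The 7 endothelial markers not called had Log2FC of -0.56 (Vwf), -0.46 (Emcn), -0.16 (Eng), -0.07 (Cldn5), -0.02 (Tek), 0.02 (Tie1) and 0.04 (Egfl7). Relative to the summed endothelial markers of its own library, the log2 ratio of Nos3 was -4.84, -4.82, -5.11 and -5.08 in NTG and -5.32, -5.26 and -5.19 in mNrf2-TG. The groups did not overlap, and the difference of -0.29 gave p = 0.0571 by the exact permutation test (adjusted p = 0.114). A decrease of Nos3 beyond that of the marker sum did not pass the test, and the part of the endothelial markers in its lower value was not tested further.

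Of 22 partner genes of nitric oxide synthesis, 5 were called, 3 higher and 2 lower, which is 22.7% against 17.2% of all genes, and 17 did not pass. Their median Log2FC was 0.09. Spr, sepiapterin reductase, which completes the tetrahydrobiopterin cofactor, rose from 323 ± 17.1 (SD, n = 4) to 517 ± 35.5 (SD, n = 3) normalized counts, a Log2FC of 0.68 (SE 0.0803, adjusted p = 0.000716, edgeR). Gch1, which starts the synthesis of the same cofactor, had 69, 74.7, 74.2 and 81.6 normalized counts in NTG and 66.7, 57.1 and 56.3 in mNrf2-TG. Its groups did not overlap, yet the Log2FC of -0.32 (SE 0.14, adjusted p = 0.131, edgeR) did not pass the test. Thus the last gene of the cofactor pathway rose, while the value of the first gene was lower without passing.

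The dimethylarginine dimethylaminohydrolases, which break down methylarginines that inhibit nitric oxide synthases, both rose. Ddah1 had 89.6, 75.6, 119 and 121 normalized counts in NTG and 228, 199 and 172 in mNrf2-TG, with a Log2FC of 0.98 (SE 0.17, adjusted p = 0.0055, edgeR). Ddah2 rose from 83.2 ± 14.4 (SD, n = 4) to 136 ± 21.5 (SD, n = 3), with a Log2FC of 0.70 (SE 0.16, adjusted p = 0.0155, edgeR), and was not called without library 19 (adjusted p = 0.064, edgeR).

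Nostrin, which binds the endothelial synthase and affects where it lies in the cell, fell from 94.4 ± 26.8 (SD, n = 4) to 48.9 ± 13 (SD, n = 3), a Log2FC of -0.96 (SE 0.25, adjusted p = 0.0284, edgeR). It was not called without NTG library 1 or 2 or mNrf2-TG library 18 or 19 (adjusted p from 0.072 to 0.0985, edgeR). Slc7a1, a transporter of arginine, had 909, 879, 284 and 894 normalized counts in NTG and 292, 202 and 414 in mNrf2-TG. NTG library 3 lay among the mNrf2-TG libraries, and the other NTG libraries lay far above. The Log2FC was -1.29 (SE 0.37, adjusted p = 0.0408, edgeR), with adjusted p-values from 0.000542 to 0.132 when 1 library was left out, and it was called without NTG library 3 or mNrf2-TG library 19 and lost without each of the others.

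The other forms and partners did not pass the test. Nos2, the inducible synthase, had 84.2 ± 13.5 (SD, n = 4) and 75.1 ± 17.9 (SD, n = 3) normalized counts (Log2FC -0.16, adjusted p = 0.616, edgeR), and without library 18 the Log2FC was 0.01. Nos1ap, an adaptor of the neuronal synthase, had 39.1, 35.1, 42.3 and 26.9 in NTG and 23.7, 25.6 and 13.6 in mNrf2-TG, without overlap (Log2FC -0.78, SE 0.27, adjusted p = 0.0747, edgeR). The caveolins, which hold the synthase at the membrane, had Log2FC of -0.18 for Cav1 (adjusted p = 0.293) and 0.15 for Cav3 (adjusted p = 0.392) by edgeR.

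**Figure D3:**
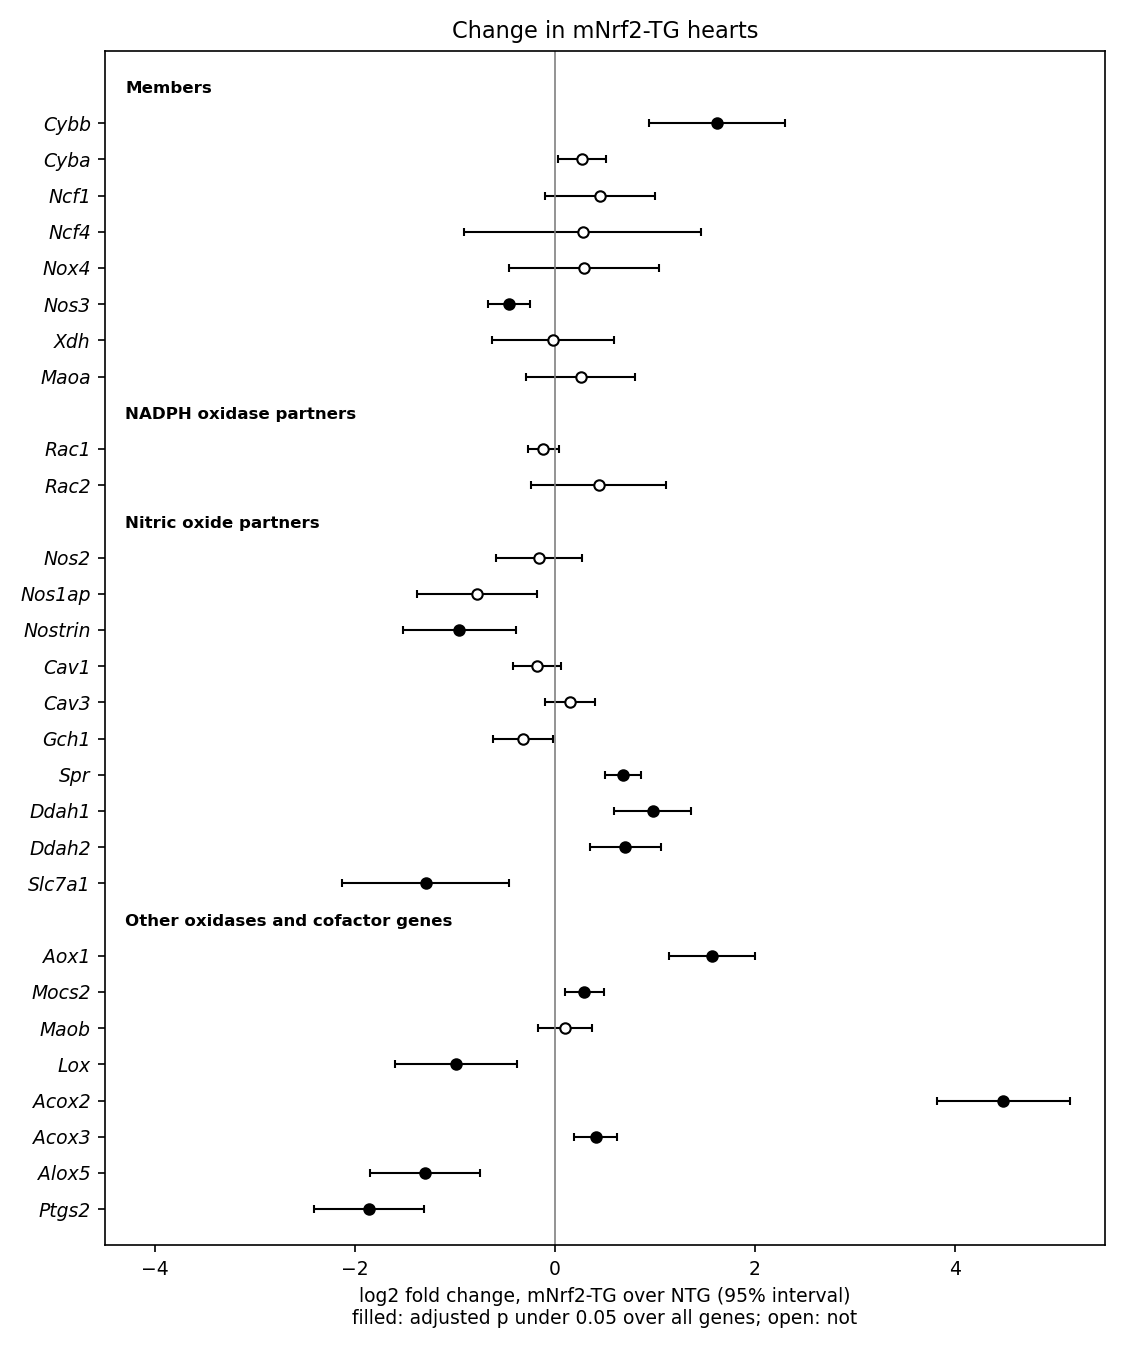
Log2FC of mNrf2-TG over NTG (x axis, log2 scale) with the 95% interval from edgeR for the 8 genes and the named partner genes, filled where the adjusted p was under 0.05. Cybb (1.62) and Nos3 (-0.46) are the filled points among the 8, and Acox2 (4.48) lies farthest from 0.

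Xdh (22436, chromosome 17 from 73883895 to 73950196, minus strand), which encodes xanthine oxidoreductase, an enzyme of purine breakdown, had the most normalized counts of the 8 genes and no detected difference between groups. The NTG libraries had 763, 1002, 1522 and 675 normalized counts and the mNrf2-TG libraries 817, 1333 and 779. NTG library 3 and mNrf2-TG library 18 were high in their groups, and the groups overlapped fully. The means were 990.4 ± 380.3 (SD, n = 4) and 976 ± 309.6 (SD, n = 3), with a Log2FC of -0.02 (SE 0.27, 95% interval -0.63 to 0.59, adjusted p = 0.968, edgeR). The interval allows changes in either direction, and leaving out 1 library gave Log2FC of -0.31 to 0.26.

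Among 10 genes of purine breakdown and of the molybdenum cofactor on which Xdh depends, 2 were higher and 0 lower, with a median Log2FC of -0.01. The share called, 20%, lay near the 17.2% of all genes. Aox1, an aldehyde oxidase with the same cofactor as Xdh, had 405, 413, 278 and 218 normalized counts in NTG and 998, 1062 and 867 in mNrf2-TG. The lowest mNrf2-TG library held more than the highest NTG library by far, a 2.97-fold difference (Log2FC 1.57, SE 0.19, adjusted p = 0.000893, edgeR). Mocs2, which takes part in making the cofactor, rose less, from 225 ± 17.5 (SD, n = 4) to 275 ± 4.15 (SD, n = 3), with a Log2FC of 0.29 (SE 0.0877, adjusted p = 0.046, edgeR), and was called in 8 of 14 alternative fits. Of the fits that left out 1 library, it kept the call without NTG library 3 or 4 and lost it without each of the others.

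Maoa (17161, chromosome X from 16619698 to 16687818, plus strand), which oxidizes serotonin and noradrenaline, had 27.6, 29.7, 49.5 and 46.8 normalized counts in NTG and 49.5, 37.4 and 50.8 in mNrf2-TG. NTG libraries 1 and 2 were low and the others lay among the mNrf2-TG values. The Log2FC was 0.26 (SE 0.25, 95% interval -0.29 to 0.80, adjusted p = 0.514, edgeR). Maob, the other monoamine oxidase, was far more abundant, at 842 ± 145 (SD, n = 4) and 901 ± 59.3 (SD, n = 3), with a Log2FC of 0.10 (SE 0.12, adjusted p = 0.625, edgeR). Per kb of exon Maob had 40.1 CPM (counts scaled to equal library totals) in NTG and Maoa 1.22. The log2 ratio of Maoa to Maob differed by 0.18 (p = 0.514, exact permutation test).

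Among 24 amine and other oxidases, 2 were higher and 3 lower, with a median Log2FC of 0.12. The share called, 20.8%, lay near the 17.2% of all genes. Acox2, a peroxisomal oxidase of branched-chain fatty acids and bile acid precursors that releases hydrogen peroxide, had raw counts from 1 to 6 in NTG hearts, against 85 to 121 with the transgene. The Log2FC was 4.48 (SE 0.30, adjusted p = 1.48e-05, edgeR), and it was called in 14 of 14 alternative fits. Acox3, a related peroxisomal oxidase, rose from 239.6 ± 10.6 (SD, n = 4) to 318 ± 38.6 (SD, n = 3), a Log2FC of 0.41 (SE 0.0966, adjusted p = 0.0186, edgeR), and was not called without NTG library 2 (adjusted p = 0.0532) or mNrf2-TG library 17 (Log2FC 0.30, adjusted p = 0.0702, edgeR).

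The 3 that fell were Ptgs2, Alox5 and Lox. Ptgs2, the inducible cyclooxygenase of prostaglandin synthesis, had 35.6, 34.2, 28.9 and 31.9 normalized counts in NTG and 9.68, 9.85 and 7.26 in mNrf2-TG (Log2FC -1.86, SE 0.25, adjusted p = 0.00133, edgeR). Alox5, which begins leukotriene synthesis, fell from 120.4 ± 36.2 (SD, n = 4) to 48.5 ± 7.7 (SD, n = 3), with a Log2FC of -1.30 (SE 0.25, adjusted p = 0.00769, edgeR). Lox, which cross-links collagen and elastin, fell from 45.3 ± 12.8 (SD, n = 4) to 22.7 ± 4.39 (SD, n = 3), with a Log2FC of -0.99 (SE 0.27, adjusted p = 0.034, edgeR), and was called in 7 of 14 alternative fits. Of the fits that left out 1 library, it kept the call without NTG library 2 and lost it without each of the others. Fibroblast markers were higher for 5 of 8 (62.5%), against 8.48% of all genes. Their sums ranged from 8819 to 11486 (NTG) and from 12812 to 13603 (mNrf2-TG). The part of these markers in the values of Ptgs2, Alox5 and Lox was not tested. In all, 12 of 67 partner genes tested were called, or 17.9%, near the 17.2% of all genes.

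**Figure D4:**
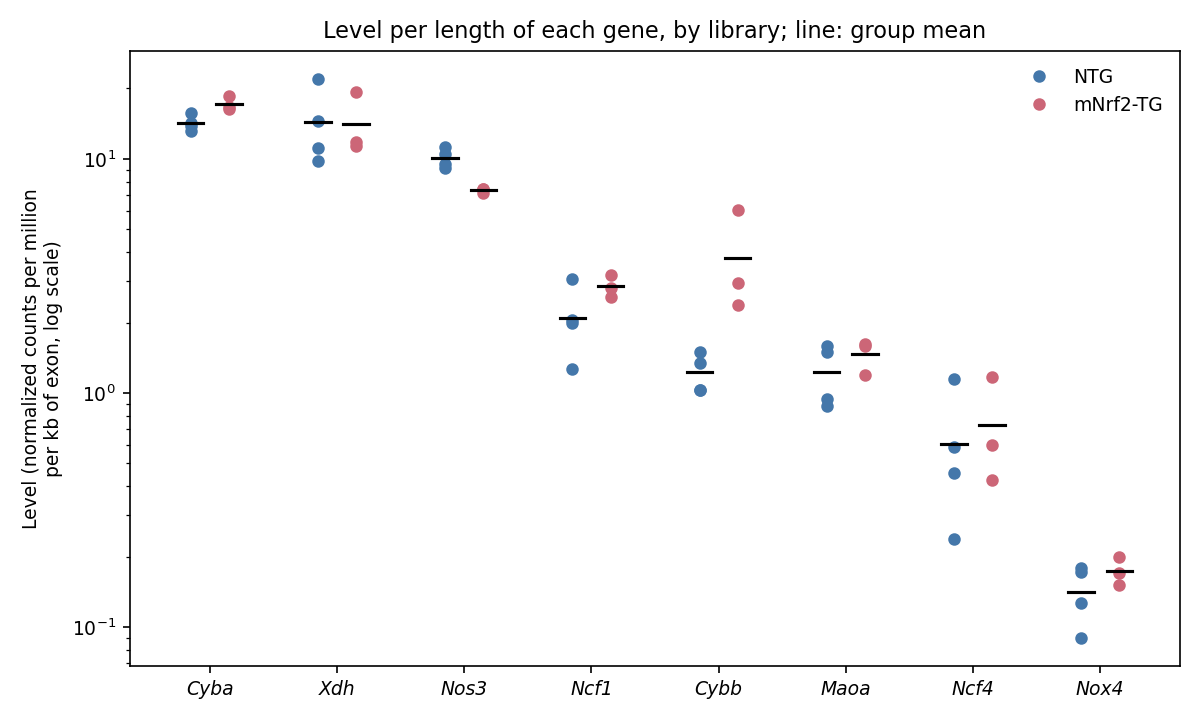
Level of each of the 8 genes per length (y axis, normalized CPM per kb of exon, log scale) in each library of NTG (blue) and mNrf2-TG (red), with lines at the group means, ordered by the NTG mean. Cyba and Xdh (14.3 each in NTG) and Nos3 (10.1) form the upper group, and Nox4 is lowest at 0.142 in NTG.

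Levels can be compared between genes only per length, as normalized CPM per kb of exon. In NTG hearts Cyba (14.3 ± 1.06) and Xdh (14.3 ± 5.51) came first and Nos3 (10.1 ± 0.922) next, followed by Ncf1 (2.1 ± 0.737), Cybb (1.23 ± 0.238) and Maoa (1.22 ± 0.362), then Ncf4 (0.608 ± 0.391) and Nox4 (0.142 ± 0.0412; SD, n = 4 for each). The ranges of neighbours in this order overlapped except between Nos3 and Ncf1 and between Ncf4 and Nox4. In mNrf2-TG hearts Cybb had 3.79 ± 1.97 (SD, n = 3) and Ncf1 2.85 ± 0.306, and the order of these subunits differed between libraries (2.95 and 2.58 in library 17, 6.04 and 3.18 in library 18, and 2.37 and 2.8 in library 19). Nos3 fell to 7.33 ± 0.175 and Cyba was at 17.2 ± 1.25. The abundance of the membrane partner Cyba exceeded that of both catalytic subunits, Cybb and Nox4, in every library of both groups.

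A pair of libraries recurred at the top of their groups. NTG library 3 was the highest NTG library for 5 of the 8 genes (Nox4, Ncf1, Ncf4, Xdh and Maoa) and for 8 of 12 macrophage markers. The mNrf2-TG library 18 was the highest of its group for 6 of the 8 genes (Cybb, Cyba, Ncf1, Ncf4, Nos3 and Xdh), and library 17 was the lowest for 5. The same shares over all genes were not computed, so these counts are not particular to the 8 genes. Neither was the deepest library of its group, at 7549166 and 7632028 counts. NTG library 3 was also the least like the other NTG libraries, by the pairwise values given with the processing.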

How the data were processed

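Total RNA from whole hearts (4 NTG and 3 mNrf2-TG mice) was made into stranded mRNA libraries and read from 1 end over 50 bases. Alignment by the authors used Novoalign 2.08.01 to mm10 (GRCm38) with Ensembl build 67 and counts were analysed with DESeq2 1.32.0, per the methods and the submitters' processing notes. The methods name hg19, a human build, for the aligner's index and mm10 for the mapping, and this was not resolved. The counting program and its use of strand are not given in the sources used here. The deposited values are raw counts per gene, 14665 entries in a table, of which 24 repeats were removed.

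Here the counts were fitted with edgeR 4.0.16 (TMM scaling, quasi-likelihood F test, two-sided) after genes with a summed count of 1 or less were removed, which left 14637, with Benjamini-Hochberg adjustment over all of them and calls at an adjusted p under 0.05. The adjusted p-values come from tests of the difference between groups, with the spread between mice as the error. Log2 ratios between genes (pseudocount 0.5 counts) were compared by exact permutation over 35 assignments. Alternatives were DESeq2 1.42.0, limma-voom (limma 3.58.1), other scalings and filters, and each library left out. The scripts were tested on simulated data with 200 changed genes, each with a true Log2FC of 1.5 in size. Of these genes 93% were recovered. Among the calls at an adjusted p under 0.05, 10.14% were false, more than that threshold aims at, so calls near it are less certain. No library pair was as alike as repeated sequencing of 1 library would be (chi-square per degree of freedom 2.82 to 17.2). Pairs with NTG library 3 had the highest values, 15.7 to 17.2. The other NTG pairs had 2.82 to 7.34 and the mNrf2-TG pairs 6.24 to 9.82. Levels per length used exon lengths of the GRCm38 annotation.

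The members and lists were chosen with earlier results of these data known. Named were the members, Nfe2l2, Rac1, Rac2, Nos2, Nos1ap, Gch1, Cav1, Cav3 and Maob, and at most 12 called partner genes, those of smallest p that reached 10 counts throughout the group with more. 1 further gene listed by name in the rule is not reported here. Marker genes were named where a result turned on them. Of 77 partner genes listed, 67 were tested. Fold changes between groups are for whole tissue. Intervals of 95% cover the fitted error only.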

Additional observations from a re-analysis of the deposited data

Results flagged for a closer look

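In 33 group values of 4 libraries each, the gap of the highest or lowest library to its nearest neighbour was compared with the range of the group (critical value 0.829 for 4 libraries), and 3 exceeded it. Chance flags about 1 in 20. Slc7a1, the arginine transporter, had 284 normalized counts in NTG library 3, against 879 to 909 in the other NTG libraries (gap over range 0.952). Cav3, the muscle caveolin, had 539 normalized counts in NTG library 4, against 429 to 442 in the others (0.876). The log2 ratio of Cybb to the summed macrophage markers was -5.31 in NTG library 4, against -5.86 to -5.77 in the others (0.838).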

How the results depend on the processing

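Each result was recomputed under up to 14 alternatives. Cybb and Nos3 were called in all 14, the other members in none except Ncf1 without NTG library 3, and the members called were 2 to 3 when 1 library was left out. Members past the study's criteria stayed at 1 and partner genes called ranged from 8 to 15. Values that changed sign, none of them called, were the Log2FC of Ncf4 without NTG library 2 (-0.0023) and without mNrf2-TG library 18 (-0.22; range over libraries left out -0.22 to 0.79), of Xdh by limma-voom (0.01), with scaling by library total alone (0.01), without NTG library 3 (0.26) and without mNrf2-TG library 17 (0.09) or 19 (0.12; range -0.31 to 0.26), and of Nos2 without mNrf2-TG library 18 (0.01; range -0.33 to 0.01). The cause was not tested. Among single-gene values 368 kept their direction and their side of the threshold, 26 lost the call and 1 gained it. The exact test of a ratio cannot go below 0.1 without an NTG library or 0.0667 without an mNrf2-TG library, so these p-values say nothing about stability. The ratio of Nos1 to Nos3 was not run. No paired analysis was possible because the groups share no replicate numbers. Nox4 and Ncf4 are limited by counts under 20 in every library.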

Other observations

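Hvcn1, which encodes the voltage-gated proton channel that balances charge while the phagocyte oxidase works, was chosen here after its values were seen. It had 9.19, 14.4, 11.3 and 15.9 normalized counts in NTG and 21.5, 25.6 and 20.9 in mNrf2-TG. The groups did not overlap, with a Log2FC of 0.82 (SE 0.27, adjusted p = 0.0634, edgeR), and it was called in 2 of 14 alternative fits. Gucy1a1, a subunit of the soluble guanylate cyclase that nitric oxide activates, also chosen after its values were seen, had 218, 271, 267 and 211 normalized counts in NTG and 158, 183 and 204 in mNrf2-TG, without overlap. Its Log2FC was -0.41 (SE 0.13, adjusted p = 0.0535, edgeR), and it was called in 3 of 14 alternative fits.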
